A study of Mus musculus with 4 samples.

Results

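The EGR transcription factors Egr1, Egr2, Egr3 and Egr4 and the corepressors Nab1 and Nab2 were followed in mouse CD4 T cells. They were chosen by name, through 7 array probes whose accession matched a RefSeq transcript of these genes. All 6 genes were found, among 19896 genes named on the array, with 2 probes for Nab2 and 1 for each other gene. The cells came from lymph nodes of male mice aged 7 weeks, and gene expression was read on single-colour arrays. The 4 groups were stimulated Med23 knockout cells, stimulated wildtype cells, unstimulated Med23 knockout cells and unstimulated wildtype cells, with 1 array each and no replicates. Stimulation lasted 6 h, and the design text names the T cell receptor (TCR). The stimulating agent, the mouse strain, the allele or Cre line behind the knockout, the number of animals per array and the way CD4 T cells were selected are not stated in the sources used here.

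EGR factors are zinc finger proteins that bind GC-rich DNA, and their genes are among the first transcribed after TCR engagement. The signal runs through the kinase ERK to ELK1, which sits with serum response factor (SRF) on CArG boxes, while calcineurin and NFAT contribute to Egr2 and Egr3. Egr1 is known to promote interleukin-2 transcription, and Egr2 and Egr3 are known to restrain T cell activation. Nab1 and Nab2 bind a domain shared by Egr1, Egr2 and Egr3 and can repress their targets. Nab2 is itself known as an EGR target, which closes a feedback loop, and it recruits the CHD4 subunit of the NuRD complex. Med23 is the Mediator subunit that phosphorylated ELK1 contacts, a link described for Egr1 in mouse embryonic stem cells.

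Stretches of upstream sequence are shown for genes that moved together (Egr2, Egr4 and Nab2) and for Nab1, which did not move with them. Promoters were matched by symbol in RefSeq tables of build GRCm38.p6, with 5 entries for Egr2 and 1 each for Egr4, Nab1 and Nab2. Egr1 and Egr3 had no entry. The 250 bases before each start were searched on both strands for the CArG box, the EGR site GCGNGGGCG, the AP-1 site TGANTCA, the CRE core TGACG and the ETS core GGAA. Among all 32851 promoter entries the shares with a match were 1.47%, 4.7%, 6.75%, 17.8% and 93.4%, in this order of motifs. For Egr2, 4 of the 5 entries held a CArG box, but these overlap in part and the same box is counted more than once. The distinct boxes are those of the stretches below. The entries that share the box of the second stretch also held 2 CRE cores each. The first Egr2 stretch, chr10:67537484-67537513 on the plus strand, and the second, chr10:67537788-67537817 on the plus strand, have the CArG box in capitals, and the second also an ETS core. In the first stretch an ETS core overlaps the end of the CArG box.
Egr2 first stretch: cggatcttctCCTTTTTTGGaaagtctcgg
Egr2 second stretch: TTCCtcagtCCATATATGGgcagcgacgtc
The Egr4 window, chr6:85513590-85513839 on the minus strand, held 2 CRE cores and 2 ETS cores, both in capitals, and no match to the CArG box, the EGR site or AP-1.
Egr4 upstream: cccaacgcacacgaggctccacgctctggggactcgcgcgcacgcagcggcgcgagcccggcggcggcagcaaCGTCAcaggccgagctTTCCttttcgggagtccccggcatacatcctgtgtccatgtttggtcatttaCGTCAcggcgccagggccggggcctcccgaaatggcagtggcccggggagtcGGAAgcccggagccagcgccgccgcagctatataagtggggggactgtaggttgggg
The Nab2 window, chr10:127666704-127666953 on the minus strand, held 3 ETS cores, in capitals, and no match to the other 4 motifs.
Nab2 upstream: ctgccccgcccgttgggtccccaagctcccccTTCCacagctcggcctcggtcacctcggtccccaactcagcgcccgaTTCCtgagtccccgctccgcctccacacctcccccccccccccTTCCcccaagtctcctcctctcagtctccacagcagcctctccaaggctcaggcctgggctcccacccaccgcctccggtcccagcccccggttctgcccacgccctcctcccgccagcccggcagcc
The Nab1 window held 3 EGR sites, shown in capitals on the minus strand at chr1:52500570-52500599, chr1:52500538-52500567 and chr1:52500467-52500496, with 1 CRE core and 2 ETS cores elsewhere in the window and no CArG box or AP-1 site.
Nab1 site a: gccccgcggcCGCCCACGCcgggatctgcg
Nab1 site b: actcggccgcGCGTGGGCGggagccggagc
Nab1 site c: gcggggcgggGCGGGGGCGgcggaggtggc
These matches describe the letters of the windows only.

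The targeted gene and the cell markers bound what the 4 arrays can show. The single Med23 probe had levels of -2.29 and -0.75 in the stimulated arrays labelled knockout and wildtype, against -1.66 and -1.59 without stimulation. Each level is a log2 signal over that array's 75th percentile, and values below a floor of -5.01 were set to it. The unstimulated pair thus did not differ in Med23 as its labels say. The sources used here do not state where this probe lies relative to the deleted part, so the word "labelled" is kept for the knockout arrays. All 10 T cell markers, Cd3e and Cd4 among them, were above the floor in every array, while the CD8 chains were above the floor too. Cd8a lay between -4.99 and -4.20, and Cd8b1 had -1.53 and -2.58 in the stimulated arrays labelled knockout and wildtype, against -0.54 and -0.55 in the unstimulated ones. The stimulated wildtype array stood apart. Its 75th percentile of raw signal was 2.05 to 2.79 times that of the other arrays, 17 of 18 myeloid markers were at least 2-fold higher in it than in the unstimulated wildtype array, and so were 7 of 8 measured red cell markers. The summed signal of the 18 myeloid markers, relative to the 75th percentile, was 352.4 in it and between 48.01 and 66.42 in the other 3 arrays. That of the 10 red cell markers was 155.7 in it and at most 0.898 in the others. Most of the myeloid sum in the other arrays came from Csf3r, which was not higher in the stimulated wildtype array (levels from 5.41 to 5.90 over the 4 arrays). In a bulk sample, fewer cells of a type and less RNA per cell cannot be told apart.

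Stimulation was accompanied by higher levels of all 4 EGR genes and of Nab2 in both genotypes, while Nab1 stayed within 2-fold. In the arrays labelled knockout, 5 of the 6 genes were at least 2-fold higher and 0 were lower, where 13.5% of 14229 measured genes were 2-fold higher and 13.8% lower. In wildtype the counts were again 5 and 0, where 14.2% of 14619 genes were higher and 12.8% lower. Egr4 is among the 5 in both genotypes, but it was at the floor in both unstimulated arrays. It counts as measured only through the stimulated arrays, so its direction was fixed in advance. These counts and the medians below include it, but it is no support for them. Of the 2-fold genes in wildtype 52.6% were higher, against 36.2% with scaling to the median and 41.6% in the authors' normalized values. The median log2 difference of the 6 genes was 2.64 in the arrays labelled knockout and 1.97 in wildtype, and that of all measured genes was 0.05 and -0.02. Without Egr4 the median gene was Egr1 in both genotypes, at 2.60 and 1.88. The 2 stimulation comparisons share no array.

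**Figure D1:**
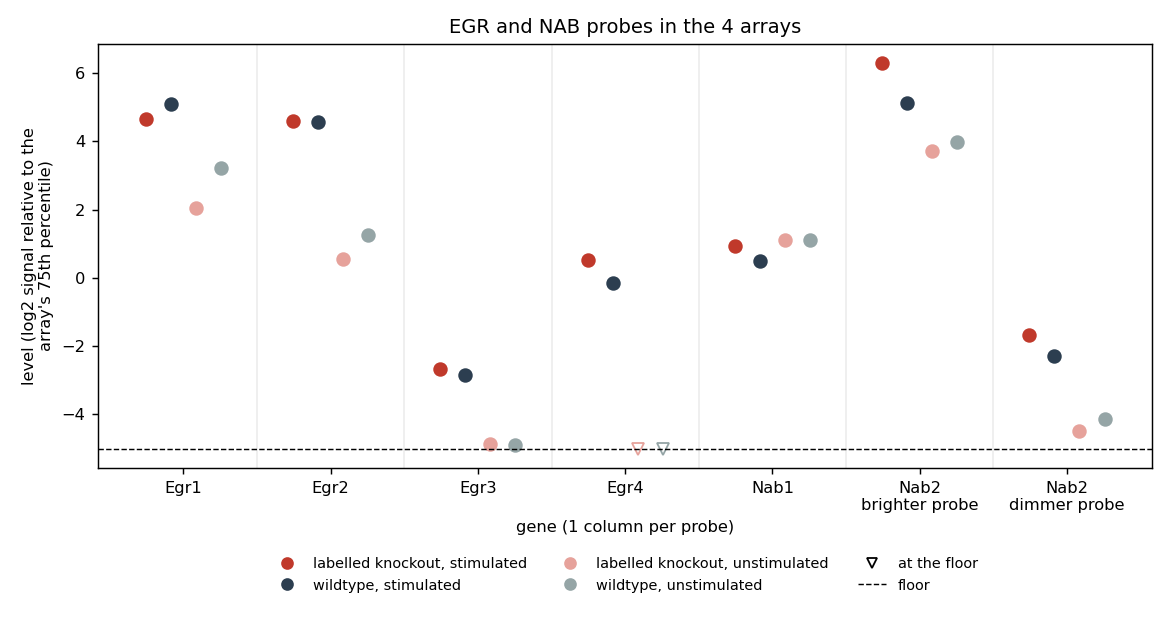
Each column is 1 probe, each point its level in 1 array (log2 signal relative to the array's 75th percentile), and open triangles mark values set to the floor of -5.01 (dashed line). Both stimulated arrays lie above both unstimulated ones for every probe but that of Nab1, and Egr1 is at 2.04 in the unstimulated array labelled knockout and 3.22 in the unstimulated wildtype array.

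Egr1, the prototype of the family, had levels of 4.65 and 5.10 in the stimulated arrays labelled knockout and wildtype, against 2.04 and 3.22 in the unstimulated arrays labelled knockout and wildtype. Both stimulated arrays were above both unstimulated ones, and the lowest level was that of unstimulated cells labelled knockout. Egr1 was 6.07-fold higher with stimulation in the arrays labelled knockout (log2 2.60) and 3.69-fold higher in wildtype (log2 1.88). No replicate checks these values. Noise between spots was read from 399 probes printed 10 times, and the SD of a log2 difference for spots as bright as Egr1 was 0.096 in the arrays labelled knockout and 0.118 in wildtype. It covers noise between spots and not between animals.

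Egr2, a factor that holds back T cell activation, had levels of 4.59 and 4.56 in the stimulated arrays labelled knockout and wildtype, against 0.54 and 1.26 in the unstimulated arrays labelled knockout and wildtype. The stimulated arrays nearly coincided, and the unstimulated ones differed. Egr2 was 16.6-fold higher with stimulation in the arrays labelled knockout (log2 4.06), the 57th largest of 14229 differences with genes at the floor taken there. In wildtype it was 9.81-fold higher (log2 3.29), the 188th largest of 14619. The spot SDs were 0.095 and 0.0995.

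Egr3, which acts alongside Egr2 in restraining activation, was dim on this array. Its levels were -2.68 and -2.84 in the stimulated arrays labelled knockout and wildtype, against -4.86 and -4.90 in the unstimulated ones, which lay just above the floor. It was 4.52-fold higher in the arrays labelled knockout (log2 2.18) and 4.19-fold higher in wildtype (log2 2.07). Spots this dim had SDs of 0.626 and 0.784 for these differences, so the Egr3 values are the least certain among the genes above the floor. With a pseudocount of 32 the wildtype difference was log2 0.39, short of 2-fold.

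Egr4, the family member that lacks the NAB-binding domain, was at the floor in both unstimulated arrays. With stimulation it reached 0.52 in the array labelled knockout and -0.17 in the wildtype array. Against the floor it was at least 46.3-fold higher with stimulation in knockout-labelled cells, and the bound in wildtype was at least 28.7-fold. With the floor at the 60th percentile the bounds were log2 2.90 and 2.22, still past 2-fold.

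Nab2, the inducible corepressor, was read by a brighter and a dimmer probe. The brighter probe had levels of 6.29 and 5.13 in the stimulated arrays labelled knockout and wildtype, against 3.71 and 3.99 in the unstimulated arrays labelled knockout and wildtype. The dimmer probe had -1.69 and -2.30 with stimulation, against -4.48 and -4.13 without, in the same order of genotypes. Both probes put the arrays in the same order, with the stimulated array labelled knockout highest and the unstimulated array labelled knockout lowest. Averaged over its probes, Nab2 was 6.44-fold higher in the arrays labelled knockout (log2 2.69) and 2.81-fold higher in wildtype (log2 1.49). The wildtype value was short of 2-fold with a floor at the 60th percentile (log2 0.61) or a pseudocount of 32 (log2 0.92).

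Nab1, the paralogue of Nab2, had levels of 0.93 and 0.50 in the stimulated arrays labelled knockout and wildtype, against 1.10 and 1.11 in the unstimulated arrays. The stimulated arrays were thus the lower ones, by log2 -0.17 in the arrays labelled knockout and -0.61 in wildtype. Neither difference reached 2-fold, and the spot SDs were 0.147 and 0.151. Within the same arrays the stimulation difference of Nab2 exceeded that of Nab1 by log2 2.85 in the arrays labelled knockout and by 2.10 in wildtype.

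**Figure D2:**
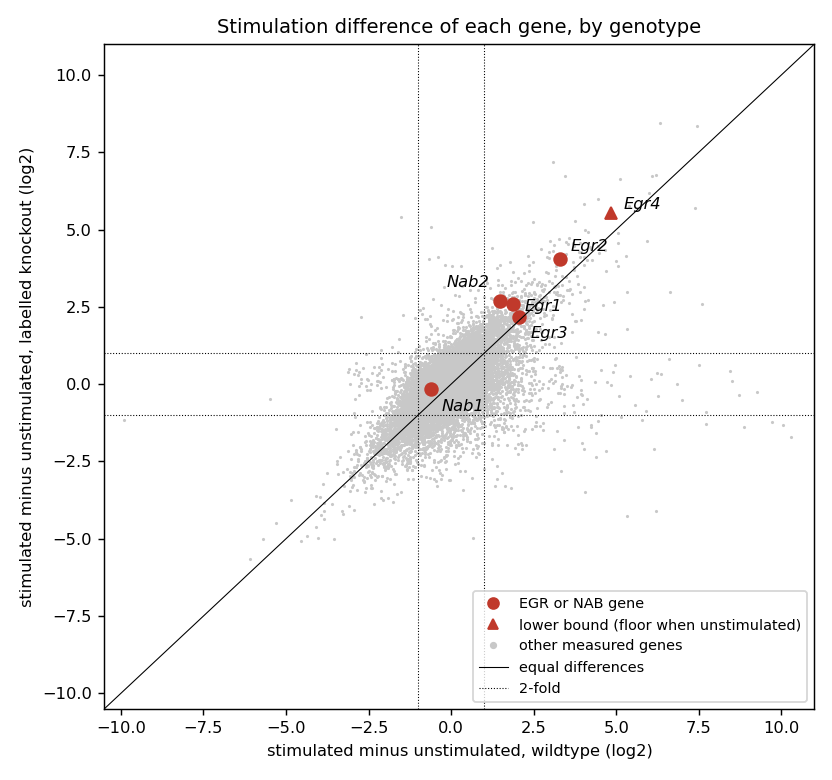
Each point is 1 of 13618 genes measured in both stimulation comparisons, with the stimulated minus unstimulated log2 difference in wildtype on the x axis and in the arrays labelled knockout on the y axis. Egr1, Egr2, Egr3 and Nab2 (circles) lie above 2-fold on both axes and above the line of equal differences. Egr4 (triangle) is drawn there too, but both its differences are lower bounds, so its side of that line is not settled. Nab1 lies inside the 2-fold lines.

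A fit over all 4 arrays asked whether the mean stimulation difference was large beside the disagreement between genotypes. It used limma with genotype as a block and Benjamini-Hochberg adjustment over 13804 genes above the floor in at least 2 arrays, with 1 residual degree of freedom before moderation. Egr4 entered the fit only through the stimulated arrays, where it was high, so its fitted value is no test and it is not counted. At an adjusted p under 0.05, 4 of the other 5 genes rose and 0 fell, where 7.09% of tested genes rose and 7.25% fell. Among the 13407 genes above the floor in both stimulation states the shares were 6.83% and 7.26%. The pooled log2 difference was 2.24 ± 0.32 for Egr1 (SE, limma adjusted p = 0.0114), 3.68 ± 0.31 for Egr2 (limma adjusted p = 0.00427), 2.12 ± 0.32 for Egr3 (limma adjusted p = 0.0132) and 2.09 ± 0.37 for Nab2 (limma adjusted p = 0.0186), each higher in 2 of 2 pairs. For Egr3 the SE of 0.32 is no settled measure of precision, since its single differences had spot SDs of 0.626 and 0.784. The Egr3 SE was 0.51 under a 20th percentile floor, 0.54 when no value was floored and 0.61 under the pseudocount. Its lowest value was 0.089, when dim genes set to the floor were left in the fit. Nab1 did not pass, at -0.39 ± 0.29 (limma adjusted p = 0.436, 95% interval -1.10 to 0.32). With the floor kept, the calls rest on the filter for dim genes. Without that filter limma called 0 genes, 3017 had an unadjusted p under 0.05, and the lowest adjusted p of the 6 genes was 0.267. When no value was floored, no gene was filtered out, and limma called 1775 of 19896 genes higher and 1703 lower. Without the stimulated wildtype array no residual degree of freedom is left, and the differences in the arrays labelled knockout, given above, are then the only ones.

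Without stimulation, Egr1 and Egr2 were lower in the array labelled knockout than in the wildtype array. Of the 5 genes measured there, 1 was at least 2-fold lower, Egr1, and 0 were higher, where 1.42% of 14008 genes were 2-fold lower and 3.31% higher. Egr1 was 2.26-fold lower (log2 -1.18, spot SD 0.0997), the 142nd lowest difference. Across 9 alternatives its difference lay between -1.26 and -1.13. The floor settings and the choice of the brightest probe could not move it, since its 1 probe lay above every floor. Egr2 differed by log2 -0.73 (spot SD 0.108), within 2-fold, and 2.98% of measured genes had a lower value. Nab2 differed by -0.31 (spot SD 0.288), Nab1 by -0.01 and Egr3 by 0.04, and Egr4 was at the floor in both arrays. The Med23 probe differed by only -0.07 in this pair of arrays, as given above. Markers of antigen-presenting cells moved in the other direction, with 5 of 7 measured dendritic cell markers at least 2-fold higher in the array labelled knockout and a summed signal of 34.4 there against 12.5 in wildtype. The 5 were the MHC class II genes H2-Aa, H2-Ab1, H2-Eb1 and Cd74, and Itgax. Flt3 and Siglech were within 2-fold, and Xcr1 and Clec9a were at the floor in both arrays. Of 8 B cell markers 2 were at least 2-fold higher in the array labelled knockout and 0 lower. The part of these cells in the Egr1 difference was not tested.

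With stimulation, the order of genotypes differed between family members. Of the 6 genes 0 were 2-fold different, where 4.98% of 14629 genes were 2-fold higher in the array labelled knockout and 8.13% lower. Of the 2-fold genes 729 were higher and 1189 lower, against 1335 and 891 with scaling to the median and 606 and 563 in the authors' normalized values. Nab2 was 1.85-fold higher in the array labelled knockout (log2 0.88), with 1.15 from its brighter probe and 0.62 from its dimmer one. Its spot SD of 0.225 rests on only 3 probes as bright. Egr4 was 1.61-fold higher (log2 0.69, spot SD 0.193) and Nab1 1.35-fold higher (log2 0.43, spot SD 0.193). Egr3 differed by 0.15, less than its spot SD of 0.547, and Egr2 by 0.04, less than its spot SD of 0.12. Egr1 was 1.37-fold lower (log2 -0.46, spot SD 0.13). The difference of Egr2 ran between -0.18 and 0.24 over its alternatives, so it has no settled direction. For Egr1 the range was -0.70 to -0.25 and for Nab2 0.62 to 1.15, on 1 side of 0 each.

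All these values use the stimulated wildtype array, in which the myeloid and red cell markers were high. When each array was instead set to the mean of its 10 T cell markers, a scaling chosen after the data had been seen, Nab2 differed by 0.74, Egr4 by 0.54, Nab1 by 0.29, Egr3 by 0.01, Egr2 by -0.11 and Egr1 by -0.60 between the stimulated arrays. The part of myeloid and red cells in these differences was not tested otherwise. A ratio of genes within an array carries no scaling factor. The ratio of Nab2 to Egr1 was 2.53-fold higher in the array labelled knockout than in wildtype with stimulation (log2 1.34) and 1.82-fold higher without it (log2 0.86). For Nab2 to Egr1, the stimulated value lay between 1.34 and 1.68 under 8 other settings, and the unstimulated one between 0.86 and 1.04. Scaling to the median is among these settings and cannot move a ratio. The floors at the 20th and 60th percentiles are among them too and left the stimulated value as it was. The dimmer Nab2 probe alone is not among them. It differed by 0.62 with stimulation, against -0.46 for Egr1, and by -0.35 without it, against -1.18 for Egr1.

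The excess of the stimulation difference in knockout-labelled cells over that in wildtype cells compares the response between the genotype labels, and was not tested. It was above 0 for 6 of 6 genes, where 55.5% of 15230 measured genes lay above 0, with a median of 0.70 for the 6 genes and 0.09 for all genes. Egr4 is in this count and median, but both its stimulation differences are lower bounds, so the sign of its excess is not settled. These 6 values share the same 4 arrays and are not replicates of each other. With T cell marker scaling, which gives no value for Egr4, 4 of 5 lay above 0. Nab2 was the only 1 of the 6 past 2-fold (log2 1.20), where 7.07% of genes were 2-fold larger and 10.6% smaller. Of these genes 39.9% were larger, against 66.9% with scaling to the median and 52.6% in the authors' normalized values. Its probes gave 1.44 and 0.96, so the dimmer probe alone fell short of 2-fold. Egr2 had 0.76 (spot SD 0.146) and Egr1 0.72 (spot SD 0.154), and both passed 2-fold with scaling to the median, at 1.05 and 1.01, where the median of all genes was 0.34. For Egr1 the larger difference came with the lower level in unstimulated cells labelled knockout, since its stimulated level was lower than in wildtype as well. Nab1 had 0.44 and Egr3 0.11, against a spot SD of 0.951 for Egr3, and Egr3 was at -0.05 with T cell marker scaling. Egr4 had 0.69, which is its difference between the stimulated arrays because both unstimulated ones were at the floor. With the floor at the 20th percentile it had 0.37.

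**Figure D3:**
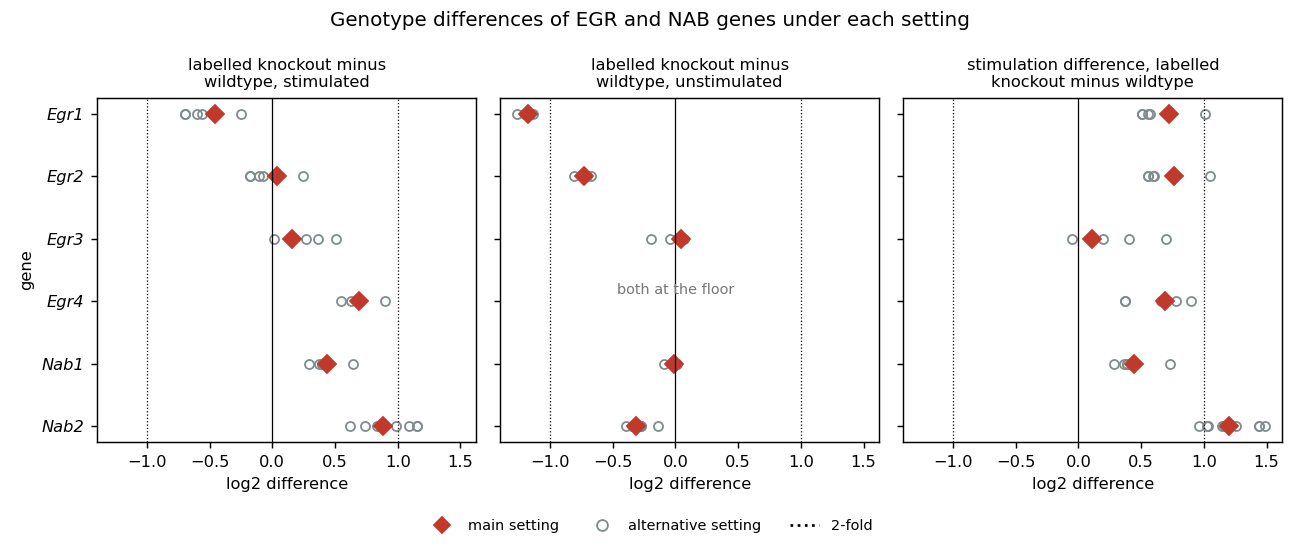
Rows are genes and the x axis is a log2 difference, with filled diamonds for the main setting, open circles for the alternatives and dotted lines at 2-fold. The panels give the array labelled knockout minus wildtype with stimulation, the same without stimulation, and the excess of the stimulation difference in knockout-labelled over wildtype cells. Egr1 stays beyond 2-fold lower in the unstimulated panel, and Nab2 has the highest main value in the other panels (0.88 and 1.20).

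The same fit was run for genotype, with stimulation as the block. It used limma and called 0 of 13804 genes at an adjusted p under 0.05, and 547 had an unadjusted p under 0.05. Egr1 had -0.82 ± 0.32 (SE, unadjusted p = 0.0399 from limma, adjusted p = 1.00), lower in 2 of 2 pairs, with a 95% interval of -1.58 to -0.05. Its limma adjusted p was lowest in the authors' normalized values, at 0.0898. Egr2, Egr3, Nab1 and Nab2 lay between -0.34 and 0.28, with intervals that include 0, and Egr4 is left out for its floored arrays. These 5 genes thus have no genotype difference that passes the correction, and intervals this wide do not show that the genotypes are alike.

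Of 20 genes of the ERK, ELK, SRF and NFAT inputs to EGR transcription, 19 were measured, and 1 rose and 1 fell in the pooled limma fit. These shares, 5.26% each way, are near the 7.09% and 7.25% over all tested genes. Nfatc1, the inducible NFAT gene, rose (pooled log2 1.91) and Nfatc3 fell (-1.36). The partners that carry the ERK signal to CArG boxes stayed within 2-fold in wildtype. In the arrays labelled knockout and in wildtype the stimulation differences were 0.42 and -0.03 for Elk1, 0.57 and 0.43 for Srf, 1.00 and 0.35 for Elk4, and -1.51 and -0.90 for Elk3, a family member known as a repressor. Between genotypes 0 of the 19 were 2-fold different without stimulation, where 3.31% of all measured genes were 2-fold higher and 1.42% lower. With stimulation 1 was, the ERK1 gene Mapk3 (-1.20), where 4.98% of all measured genes were 2-fold higher and 8.13% lower.

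Other immediate early genes are the natural peers of the EGR family. Of 27, the 25 above the floor in both stimulation states held 12 that rose and 0 that fell in the pooled limma fit, where 6.83% of such genes rose and 7.26% fell. The nuclear receptor Nr4a2 (pooled log2 7.89), the stress factor Atf3 (6.49) and Nr4a1 (4.53) had the largest values, with 1 array of Atf3 taken at the floor. Nr4a3 was at the floor in both unstimulated arrays and is not counted, with stimulation differences of at least 4.54 (labelled knockout) and at least 3.54 (wildtype). The Fos family member Fosb rose by 3.45 and Fos by 1.23, while Jun did not pass, at stimulation differences of -0.27 and -0.07 in the arrays labelled knockout and in wildtype. Without stimulation 0 of the 25 measured were 2-fold different between genotypes (median -0.18), where 3.31% of all measured genes were 2-fold higher and 1.42% lower. Dusp2 (-0.95) and Fosl1 (at most -0.93, at the floor in the array labelled knockout) lay nearest to 2-fold lower and Fosb (0.96) nearest to 2-fold higher, against -1.18 for Egr1. For the excess of the stimulation difference in knockout-labelled cells, 4 of the 27 were at least 2-fold larger and 1 smaller (median 0.43). Over all measured genes 7.07% were 2-fold larger and 10.6% smaller. The larger were the Fos family member Fosl1 (1.65, with its unstimulated array labelled knockout at the floor), the MAPK phosphatases Dusp5 (1.30) and Dusp2 (1.22) and the small Maf factor Maff (1.13), and Klf4 (-1.07) was the smaller.

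Genes known as EGR targets in T cells were also followed. The list was drawn up from general knowledge with earlier results of these arrays known, so its direction is no independent evidence. Of 26 tested, 11 rose and 2 fell in the pooled limma fit, and the share that fell, 7.69%, is near the 7.25% over all tested genes, of which 7.09% rose. Il2, the growth factor of T cells, rose by 4.51, Tnf by 3.82, Fasl, a death ligand linked to Egr2 and Egr3, by 2.80, and Tbx21, a helper type 1 factor linked to Egr1, by 3.81. Sema7a (6.55), Rgs16 (4.51), Crtam (3.22) and Tnfrsf9 (2.95), described as Egr2 targets in anergic cells, rose too. Dgka, the diacylglycerol kinase of anergy, fell by 1.88, and Socs3 by 1.17. The anergy ligase Cblb did not pass, with stimulation differences of 0.82 and 0.28 in the arrays labelled knockout and in wildtype, nor did Itch, with 0.01 and -0.79.

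Several of these targets also differed between genotypes. With stimulation 8 of 26 were at least 2-fold higher in the array labelled knockout and 2 lower, where 4.98% and 8.13% of all genes were. Tbx21 (1.78), Rnf128 (1.49), Lag3 (1.45) and Socs1 (1.34) were the largest on the higher side, and Nrn1 (-2.70) and Cdkn1b (-1.17) were the lower ones. Il2 was higher by 1.28, Cblb differed by 0.29, Tnf by 0.52 and Fasl by 0.10. Without stimulation 2 were higher, Sema7a (1.55) and Cdkn1a (1.39), and 3 lower, Nrn1 (-2.98), Ccl1 (-2.06) and Crtam (-1.29). Over all measured genes 3.31% were 2-fold higher there and 1.42% lower. Crtam was thus lower in unstimulated cells labelled knockout, at 0.37 against 1.66 in wildtype, as Egr1 and Egr2 were. Its levels in the stimulated arrays were nearly the same, at 4.32 and 4.15, which was not so for Egr1 (difference -0.46). The list as a whole was not lower without stimulation, with a median of -0.05 against -0.02 for all measured genes.

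Nab2 is known to repress through the NuRD complex. Of its 13 listed subunits 0 rose and 0 fell in the pooled limma fit, where 7.09% of all tested genes rose and 7.25% fell. Chd4, the subunit that Nab2 binds, had stimulation differences of 0.50 in the arrays labelled knockout and 0.65 in wildtype. In the arrays labelled knockout 4 of 13 were at least 2-fold higher and 0 lower, and in wildtype 0 were higher and 2 lower, Chd3 (-1.70) and Hdac1 (-1.03). Over all measured genes 13.5% were higher and 13.8% lower in the arrays labelled knockout, and 14.2% higher and 12.8% lower in wildtype. The medians were 0.46 and -0.09. Between genotypes 0 of 13 were 2-fold different, with or without stimulation. Over all measured genes 4.98% were 2-fold higher and 8.13% lower with stimulation, and 3.31% higher and 1.42% lower without it.

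**Figure D4:**
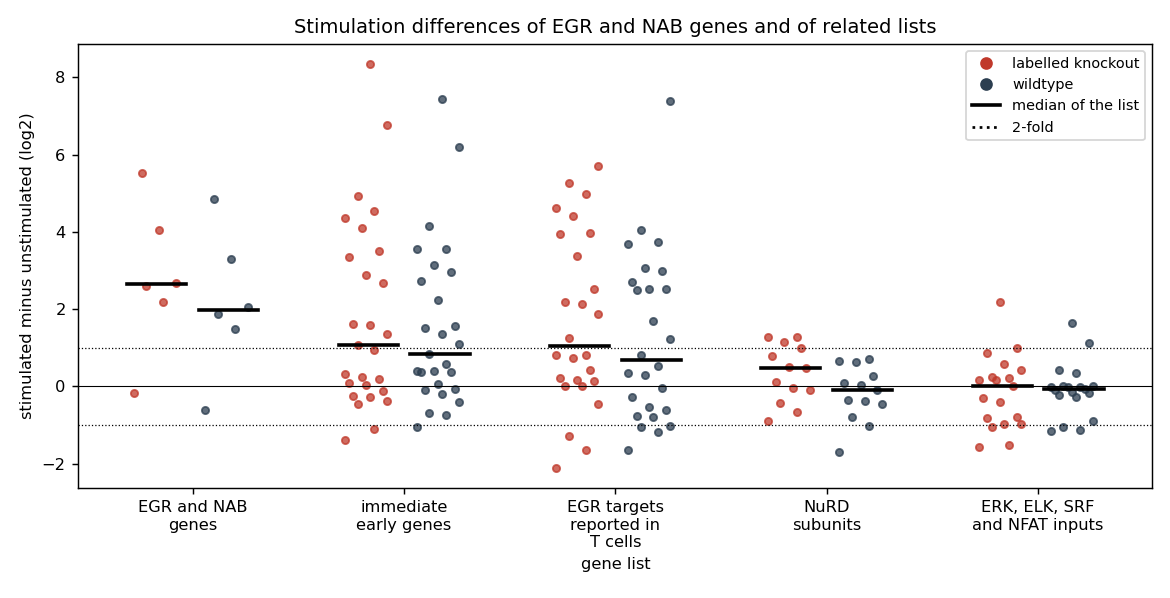
Each point is the stimulated minus unstimulated log2 difference of 1 gene, in the arrays labelled knockout and in wildtype, for the EGR and NAB genes and 4 related lists, with black bars at the medians and dotted lines at 2-fold. The EGR and NAB medians, with Egr4 taken at its lower bound, are 2.64 and 1.97, against 1.07 and 0.85 for immediate early genes, 1.03 and 0.68 for reported EGR targets, 0.46 and -0.09 for NuRD subunits, and 0.02 and -0.06 for the inputs.

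Genes with the most similar pattern were sought among 10738 genes above the floor in all arrays, by the Euclidean distance between log2 levels centred on each gene's mean over the 4 arrays. Nearest to Egr1 were C2cd4b (0.12), Tepp (0.51) and Aebp1 (0.60), so only C2cd4b had a close pattern, with levels of -1.63 and -1.02 in the stimulated arrays labelled knockout and wildtype, against -4.19 and -2.94 in the unstimulated ones. Nearest to Egr2 were the granzyme Gzmb (0.57), the glycine transporter Slc6a9 (0.57) and Maff (0.61), none of them close. Egr3 lay near the translation factor Eif2b3 (0.055), the RNA methyltransferase Nsun2 (0.06) and the chaperonin subunit Cct3 (0.074). These distances are far below the spot SDs of the Egr3 stimulation differences (0.626 and 0.784), so which genes lie nearest to Egr3 is not settled. Nab2 lay near the ribosome assembly factors Bysl (0.15) and Rrp9 (0.16). Nab1 lay near Pmm2 (0.0097), Sppl2b (0.011) and Rab3gap2 (0.033), and Egr4 was left out because it was at the floor in 2 arrays. With 4 points a pattern, small distances arise for many genes of modest change, so these neighbours are a description only.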

How the data were processed

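Per the file headers, the authors deposited the spot intensity left after all within-array steps of Agilent Feature Extraction 10.7.3.1 (version per the submitters' processing notes), not normalized between arrays and without detection flags. A second deposited table holds the authors' normalized log2 values for 17878 probes, exported from GeneSpring GX 11.5.1, per the file headers, by a method the sources do not state, and it lists 4 of the 7 probes. Here, 1377 control spots of 44397 were left out, spots of a probe were averaged as log2, the 75th percentile was subtracted in each array, and values under the median over arrays of the 40th percentiles were set to that floor. Of 39429 probes, 26299 were named by RefSeq accession (GRCm38.p6, names only), and a gene's probes were averaged. A gene counts as measured if 1 or more of the compared arrays exceed the floor. Single comparisons have 1 array a group, so they are called at 2-fold with no p-value. The pooled fits used limma 3.58.1 in R 4.3.3 and were tested on simulated data. Its p-values rest on 4 arrays whose independence the sources do not state, so they measure only the spread between these samples. All 6 genes with their 3 nearest profiles, and Med23, are named, and of each list up to 4 genes with the largest differences in each direction and those with a stated role. A neighbour of Nab2 is not reported here. Fos, Jun, Itch, Tnfrsf9, Cd3e, Cd4, Cd8a, Cd8b1 and the dendritic cell markers were named after their values were seen. Genes, lists and tests were chosen with earlier results of these data known. Precision is limited by the number of arrays.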

Additional observations from a re-analysis of the deposited data

Results flagged for a closer look

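Nab2 differed between genotypes in opposite directions with and without stimulation. It was higher in the array labelled knockout with stimulation (log2 0.88) and lower without it (log2 -0.31), against SDs between spots of 0.225, from only 3 probes as bright, and 0.288, and both of its probes gave these signs. With 1 array a group the difference was not tested.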

How the results depend on the processing

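Of 254 alternatives for the 6 genes in the 5 single comparisons, 245 kept the call (2-fold higher, 2-fold lower or within 2-fold). Another 5 newly passed the threshold, 4 no longer did and 0 of the called values changed sign. Values within 2-fold could change sign and still count as kept, as for Egr2 between the stimulated arrays (0.04 in the main setting, as low as -0.18). Some alternatives could not move a value, such as other floors for genes whose 1 probe lay well above them. Of 57 alternatives for the pooled stimulation values of the 6 genes, 51 kept the call and 6 lost it. The 57 for genotype made no call. The cause of the changes below was not tested unless stated. Scaling to the median put Nab2 at 1.09 between the stimulated arrays and the excess of the stimulation difference in knockout-labelled cells at 1.01 for Egr1 and 1.05 for Egr2. The brighter Nab2 probe, also the brightest, gave 1.15 between the stimulated arrays, and the dimmer one alone gave 0.96 for the excess. In wildtype the stimulation difference of Nab2 was 0.61 with the 60th percentile floor. The pseudocount gave 0.92 for it and put Egr3 at 0.39 and its pooled value at 0.74 (limma adjusted p = 0.741). Without the filter on dim genes, and with the floor kept, the pooled values were the same. They were 2.24 for Egr1, 3.68 for Egr2, 2.12 for Egr3, 5.19 for Egr4 (no test, since its unstimulated arrays are at the floor) and 2.09 for Nab2. Their limma adjusted p lay between 0.267 and 0.343, and 0 genes were called against 1980. Genes at the floor in all arrays have no residual, and the prior degrees of freedom were 0.743 without the filter and 5.37 with it.

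Counts of 2-fold genes moved more. Between the stimulated arrays they were 1918 in the main setting, 1169 in the authors' values, 2922 and 864 with floors at the 20th and 60th percentiles, 5893 with no floor and 6957 with the pseudocount. Between the unstimulated arrays they were 662, and 276, 1310, 201, 1377 and 220 in the same order of settings. For the excess they were 2696, and 1575, 4132, 1287, 6350 and 8394 in that order. For stimulation in wildtype they were 3949, and 2506 with the 60th percentile floor, 6382 with no floor and 7902 with the pseudocount. limma called 3469 genes for stimulation in the authors' values and 3478 with no floor. For genotype it called 0, but 204 with scaling to the median, 124 in the authors' values, 27 with the 60th percentile floor, 306 with no floor, 147 with the pseudocount and 11 with the brightest probe, and 0 of the 6 genes were among them.

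Scaling to the median moved the median of all genes to 0.28 between the stimulated arrays, against 0.09, and to -0.23 for stimulation in wildtype, against -0.02. Egr3 was not measured with the 60th percentile floor, and Egr3 and Egr4 have no value in the authors' table. The T cell marker scaling, the single Nab2 probes and the ratio of Nab2 to Egr1 were chosen after the data had been seen. The labels give no replicate numbers, so arrays were matched by genotype or stimulation only, as blocks in the pooled fits. Dim probes limit Egr3 and Egr4, which lay at or just above the floor without stimulation.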
